A study of Mus musculus with 6 samples.

Results

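The genes described here are 38 enzymes of amino acid and one-carbon metabolism, out of 35275 gene IDs in the read count table of the study. They make or use serine, glycine, folate-bound carbon units, proline, asparagine, glutamate, methionine and cysteine, and each was matched to a single gene ID by its symbol. The genes were chosen by function, by someone who already knew the fold changes between iBRD9 and DMSO in these samples. Their fold changes are therefore a description. The adjusted p beside a gene was adjusted over all genes tested and takes no account of this choice. The samples are 6 RNA-seq libraries of Melb-a, an immortal line of C57BL/6J mouse melanoblasts, the precursors of pigment cells. When near confluence, all cells were moved to DMEM with 10% serum, 2 nM of the hormone analog NDP-alpha MSH and 200 nM of the phorbol ester PMA, a medium in which melanoblasts differentiate. For 48 h this medium also held the vehicle DMSO (3 samples) or 10 µM iBRD9, a small molecule that binds the bromodomain of the SWI/SNF chromatin remodeling subunit BRD9 (3 samples). Both groups thus received the hormone analog and PMA. A single line, dose and time were used, so effects through BRD9 and other effects of the compound cannot be told apart. The labels call the samples independent without naming separate cultures, and p-values measure only the spread between these samples.

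Serine is made from a glycolysis intermediate by PHGDH, PSAT1 and PSPH. Serine hydroxymethyltransferases then split serine into glycine and a carbon unit on folate, and further enzymes oxidise or release that unit, in parallel sets in the mitochondria and the cytosol. The units feed purine and thymidylate synthesis and the methionine cycle, from which transsulfuration leads to cysteine. Many genes of serine, asparagine, proline and mitochondrial folate metabolism are known targets of ATF4, the transcription factor of the amino acid response, which binds C/EBP-ATF response elements as a dimer with C/EBP proteins.

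Library totals ran from 22846391 to 29680952 counts, and genes with too few counts were left untested. Values are CPM, counts relative to the library total after TMM scaling, a trimmed mean that evens out composition between libraries. A gene is said to have risen or fallen where the edgeR quasi-likelihood test gave a Benjamini-Hochberg adjusted p under 0.05 over all 13602 tested genes. The pigment lineage markers Tyr, Tyrp1, Dct, Pmel, Mlana, Mitf and Sox10 were all well expressed, summing to 15314.5 to 17573.0 CPM with DMSO and 14731.7 to 16227.0 CPM with iBRD9; 4 of the 7 fell and 1 rose. Of 8 fibroblast markers 6 were tested, 1 fell and 2 rose, and their sum was 76.1 to 100.5 CPM with DMSO and 132 to 146 CPM with iBRD9. Dcn made up most of that sum and rose from a mean of 51.2 to 120 CPM. Col1a1 rose from a mean of 0.679 to 3.52 CPM, and Col1a2 fell from 29.6 to 7.64 CPM. Sums were 3.54 to 4.30 and 3.80 to 4.42 CPM for 6 keratinocyte markers, 5.69 to 7.53 and 3.88 to 4.64 CPM for 5 immune markers, and 1.46 to 1.60 and 4.42 to 6.16 CPM for 4 endothelial markers. Krt5, Krt1, Ptprc and Cd3e had 0 counts in every library. The part of these markers in the results below was not tested. In bulk RNA, fewer cells of a type and less RNA per cell cannot be told apart.

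Of the 38 enzymes, 32 passed the filter on low counts. With iBRD9 20 of the 32 fell (62.5%), 5 rose (15.6%) and 7 did not pass, while of all tested genes 30.9% fell, 29.8% rose and 60.7% were called in either direction. Falls of at least 1 on the log2 scale were found in 13 of the 32 (40.6%), beside 5.46% of all tested genes, and no enzyme rose by that much (0; Amt did, by 1.42 without DMSO replicate 1 and by 1.03 with library size alone). The median log2 fold change was -0.61 over the 32 enzymes and 0.01 over all tested genes. The DMSO and iBRD9 libraries did not overlap in 25 of the 32 (78.1%), against 68.0% of all tested genes, so separation of the groups was common throughout these data. Summed over the 13 enzymes with the large falls, the libraries held 2903, 4206 and 4318 CPM with DMSO and 1020, 826 and 829 CPM with iBRD9. Leaving out 1 library changed the count of risen enzymes: it was 2 when DMSO replicate 2 or iBRD9 replicate 2 was left out, and 3 when DMSO replicate 3, iBRD9 replicate 1 or iBRD9 replicate 3 was. In these settings 3235 to 3517 of all tested genes rose, in place of 4057.

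**Figure D1:**
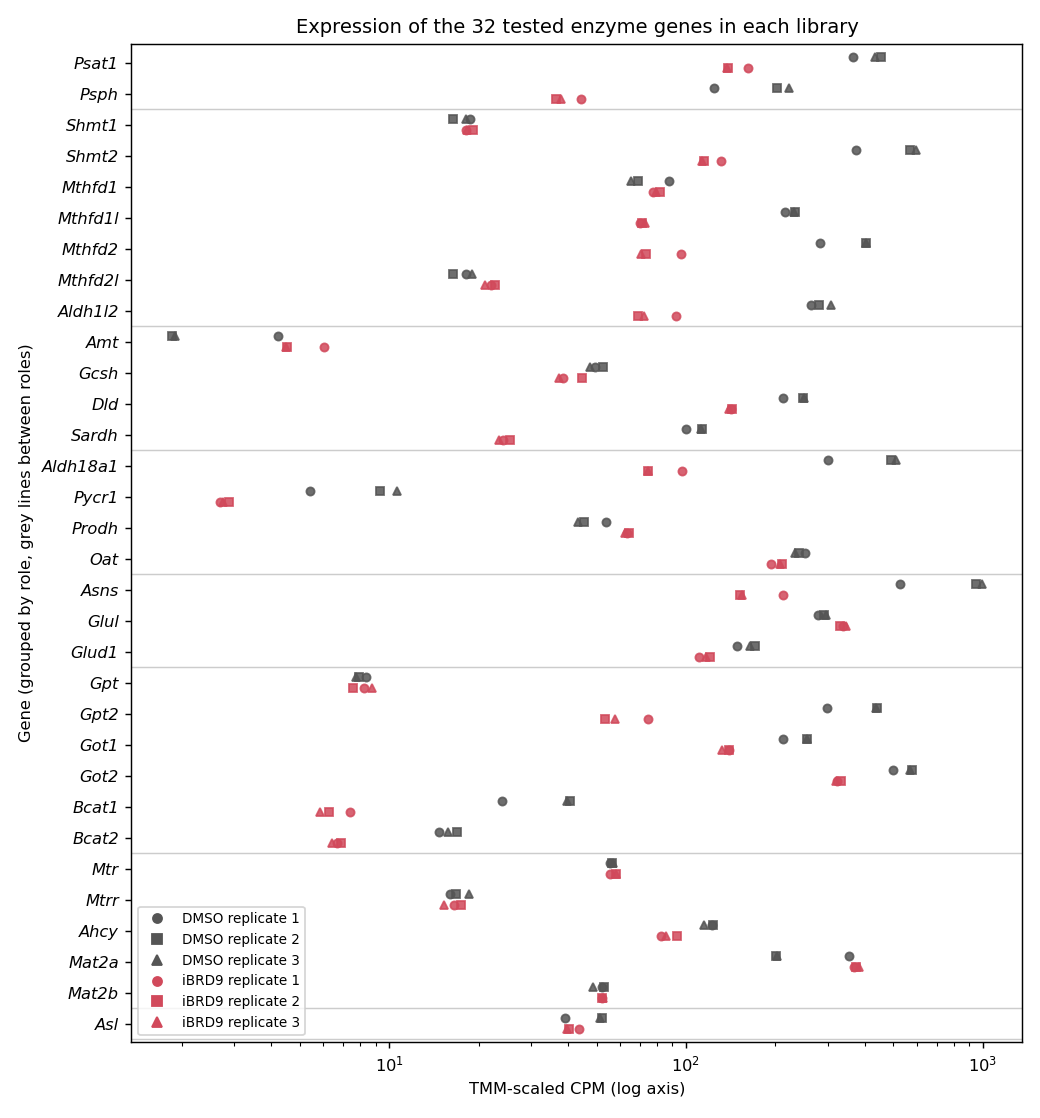
TMM-scaled CPM (horizontal, log axis) of the 32 tested enzyme genes (vertical, grouped by role) in each of the 3 DMSO and 3 iBRD9 libraries, 1 point per library. For 25 of the 32 genes the groups do not overlap, beside 68.0% of all tested genes. For each of the 13 genes with a fall of at least 1 on the log2 scale DMSO replicate 1 is the DMSO library nearest to iBRD9.

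DMSO replicate 1 differed from its group in many of these genes. In each of the 13 enzymes with the large falls it was the lowest DMSO library. On the log2 scale it lay below the mean of DMSO replicates 2 and 3 by a median of -0.55 (range -0.88 for Asns to -0.10 for Mthfd1l). Over the other 19 tested enzymes the median was 0.04 (range -0.40 for Asl to 1.13 for Amt). Over all tested genes it was -0.002, with a range of -2.16 to 2.77, so genes differed in both directions. The difference was not limited to these enzymes: without DMSO replicate 1, 10311 of all tested genes were called, in place of 8262. Leaving out any other single library gave 6865 to 7322. Among all 742 genes that fell by at least 1, 77.4% were lower in DMSO replicate 1, with a median of -0.27. These differences share the DMSO libraries with the fold changes. Without DMSO replicate 1 all 13 large falls were called, with log2 fold changes of -2.83 to -1.31 in place of -2.66 to -1.25. In that setting 21 enzymes fell and 6 rose, beside 5152 lower and 5159 higher of all 13933 tested genes. Among the iBRD9 libraries replicate 1 was the highest in 9 of the 13.

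**Figure D2:**
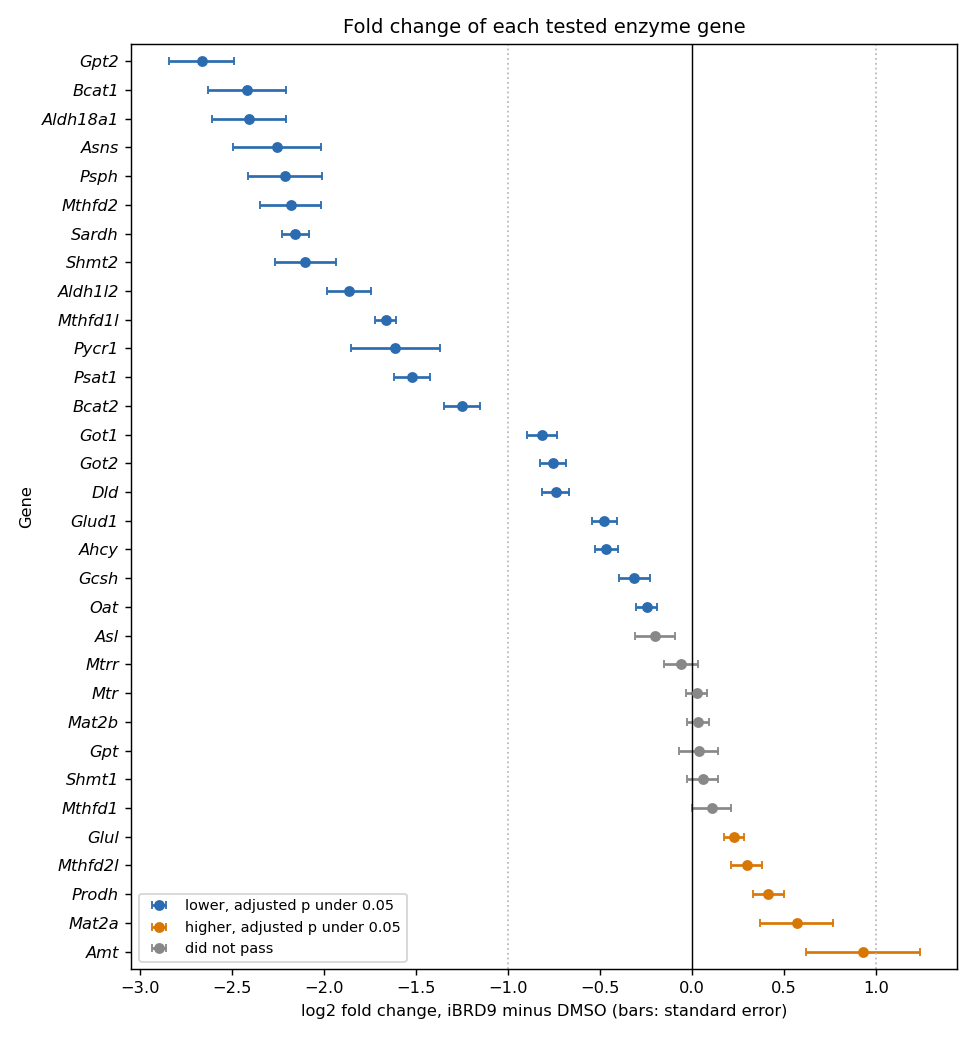
Log2 fold change of iBRD9 against DMSO (horizontal) for the 32 tested enzyme genes (vertical, sorted by value), with bars for the standard error of the edgeR fit. The values run from -2.66 for Gpt2 to 0.93 for Amt, and dotted lines mark -1 and 1.

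Sequence upstream of these genes was searched for the core of the C/EBP-ATF element, TGATGNAA on both strands, since its transcription factor is the known regulator of many of them. The windows, from RefSeq on GRCm38.p6, span 250 bases before to 50 after an annotated start, and 34 of the 38 genes had at least 1 window; Aldh1l2, Asl, Cth and Gpt did not. TGATGNAA was found for 3 of the 34 (8.82%), Asns, Pycr1 and Got1, and for 4.51% of all 27025 genes with a window. Of the 12 genes with a large fall and a window, 2 held it. The narrower TGATGCAA, which is part of TGATGNAA, was found for Pycr1 and Got1 (5.88%) against 1.03% of all genes. The E-box CACGTG, the same on both strands, was found for Aldh18a1, Ass1 and Cbs (8.82%) against 8.09%. Atf4 itself fell, from 650, 609 and 584 CPM with DMSO to 365, 306 and 298 CPM with iBRD9 (log2 fold change -0.93, SE 0.087, edgeR adjusted p = 6.14e-05). Within the DMSO group, replicate 1 had the most Atf4, while it was the lowest DMSO library for each of the 13 enzymes with large falls. The part of Atf4 in these falls was not tested.

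The 120 bases before the annotated start of the 3 genes with the C/EBP-ATF core, and of Aldh18a1 as the fallen gene with an E-box, are shown 5′ to 3′ on the gene's strand, with the match in capitals. The first base of the match lies 23 bases before the start in Asns, 103 in Pycr1, 102 in Got1 and 59 in Aldh18a1, and in Got1 the core reads on the opposite strand (TTGCATCA on the strand shown).
Asns, chr6:7693210-7693329, minus strand: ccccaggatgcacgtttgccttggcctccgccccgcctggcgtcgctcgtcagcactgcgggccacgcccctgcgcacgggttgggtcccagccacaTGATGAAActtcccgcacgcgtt
Pycr1, chr11:120643749-120643868, minus strand: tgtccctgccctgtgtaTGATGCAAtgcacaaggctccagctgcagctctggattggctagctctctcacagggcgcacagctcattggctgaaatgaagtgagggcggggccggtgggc
Got1, chr19:43524606-43524725, minus strand: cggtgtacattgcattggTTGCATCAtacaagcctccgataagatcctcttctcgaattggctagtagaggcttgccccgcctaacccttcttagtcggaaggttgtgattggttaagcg
Aldh18a1, chr19:40588464-40588583, minus strand: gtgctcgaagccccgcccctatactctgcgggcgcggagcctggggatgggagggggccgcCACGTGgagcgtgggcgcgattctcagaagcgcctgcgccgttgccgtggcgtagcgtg
A match of letters is a description of the window and was not tested as a binding site.

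Both tested enzymes of serine synthesis fell. Psph (ENSMUSG00000029446), whose product removes the phosphate in the last step of serine synthesis, had 125, 202 and 223 CPM with DMSO and 44.4, 36.5 and 37.8 CPM with iBRD9. Every DMSO library was above every iBRD9 library, and the fall was 4.62-fold (log2 fold change -2.21, SE 0.200, edgeR adjusted p = 5.26e-05). Psat1 (ENSMUSG00000024640), the transaminase of the step before, went from 367, 455 and 435 CPM to 161, 139 and 137 CPM. It fell by less than Psph, 2.87-fold (-1.52, SE 0.098, edgeR adjusted p = 1.17e-05), again without overlap. Cct6a overlaps 10.4% of the exon bases of Psph on the opposite strand, and no strand setting is given, so some Psph reads may be of Cct6a, which held 7020 to 8525 counts per library against 896 to 5280 for Psph.

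Phgdh, the first enzyme of the pathway, had 1, 1 and 2 counts with DMSO and 1, 4 and 3 with iBRD9, and was not tested. Its transcript closely matched 17 other annotated transcripts (at least 90% identity over at least 30% of its length), the most of any of the 38 genes. Of these, 7 were counted in the table, at 0 or 1 count each. Reads that match several places may have been dropped in counting, so the level of Phgdh is uncertain. The same limit applies to the levels of Psat1, Gcsh, Glul, Gpt2, Got2, Ahcy, Mat2a and Ass1, and to ratios that use them. Each of these genes had 1 to 3 such matches.

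Shmt2, Mthfd2, Mthfd1l and Aldh1l2, mitochondrial enzymes of serine-derived carbon units, fell, while the cytosolic Shmt1 and Mthfd1 did not pass the test and the mitochondrial Mthfd2l rose slightly. Shmt2 (ENSMUSG00000025403), the mitochondrial serine hydroxymethyltransferase, stood at 376, 570 and 597 CPM with DMSO and 131, 115 and 114 CPM with iBRD9. The lowest DMSO library was far above the highest iBRD9 library, and the fall was 4.29-fold (log2 fold change -2.10, SE 0.164, edgeR adjusted p = 2.69e-05). Mthfd2 (ENSMUSG00000005667), the mitochondrial dehydrogenase and cyclohydrolase, went from 283, 404 and 403 CPM to 96.6, 73.6 and 70.4 CPM. Its fall was 4.53-fold (-2.18, SE 0.166, edgeR adjusted p = 2.39e-05). Mthfd1l (ENSMUSG00000040675), which releases the unit as formate, had the tightest values of the group, with 216, 233 and 230 CPM against 70.2, 71.4 and 72.7 CPM. It fell 3.17-fold (-1.66, SE 0.056, edgeR adjusted p = 1.02e-06). Aldh1l2 (ENSMUSG00000020256), which oxidises the mitochondrial unit to carbon dioxide, went from 263, 280 and 309 CPM to 92.9, 68.7 and 72.3 CPM. The fall was 3.64-fold (-1.86, SE 0.118, edgeR adjusted p = 1.05e-05); D10Wsu102e shares 14.1% of its exon bases on the opposite strand, at 653 to 881 counts against 1713 to 7331.

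In the cytosol, Shmt1 stood at 18.8, 16.4 and 18.2 CPM with DMSO and 18.1, 19.2 and 18.3 CPM with iBRD9 (log2 fold change 0.06, edgeR adjusted p = 0.559). Mthfd1, the trifunctional cytosolic enzyme, stood at 88.0, 68.7 and 65.2 CPM and at 77.7, 82.0 and 79.3 CPM (0.11, edgeR adjusted p = 0.410). Smcr8 overlaps 4.7% of the exon bases of Shmt1 on the opposite strand, at 2869 to 3905 counts per library against 417 to 557 for Shmt1, so some Shmt1 reads, which also enter its ratio to Shmt2, may be of Smcr8. For both Shmt1 and Mthfd1 the groups overlapped, and for Mthfd1 DMSO replicate 1 was the highest of all 6 libraries. Without that library Mthfd1 passed as higher (0.24, edgeR adjusted p = 1.18e-04, with 1.18e-04 to 0.901 over all alternatives). Mthfd2l, a mitochondrial relative of Mthfd2, rose slightly, from 18.1, 16.4 and 19.0 CPM to 22.0, 22.7 and 21.1 CPM (0.30, edgeR adjusted p = 0.0143). Its call was lost without DMSO replicate 2 (0.23, adjusted p = 0.0717) and without iBRD9 replicate 2 (0.27, adjusted p = 0.0611), with 0.00220 the lowest over all alternatives. Aldh1l1, the cytosolic relative of Aldh1l2, had 0 to 6 counts per library and was not tested.

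The ratio of 2 transcripts within a library does not depend on how libraries are scaled, and was taken for pairs of related enzymes, with CPM divided by the length of all annotated exons in kilobases. Shmt2 was 25.0, 43.3 and 41.0 times Shmt1 in the DMSO libraries and 9.05, 7.49 and 7.75 times in the iBRD9 libraries. The ratio of Mthfd1l to Mthfd1 was 2.46, 3.39 and 3.54 with DMSO and 0.905, 0.872 and 0.918 with iBRD9, so that the mitochondrial transcript was the more abundant in each DMSO library and the less abundant in each iBRD9 library. Mthfd2 was 29.8, 46.8 and 40.5 times Mthfd2l with DMSO and 8.37, 6.17 and 6.36 times with iBRD9. Shmt2 and Mthfd2 were still the leading forms with iBRD9, by smaller factors. In these pairs the DMSO and iBRD9 ratios did not overlap; differences between paired genes are given as values here and below and were not tested.

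**Figure D3:**
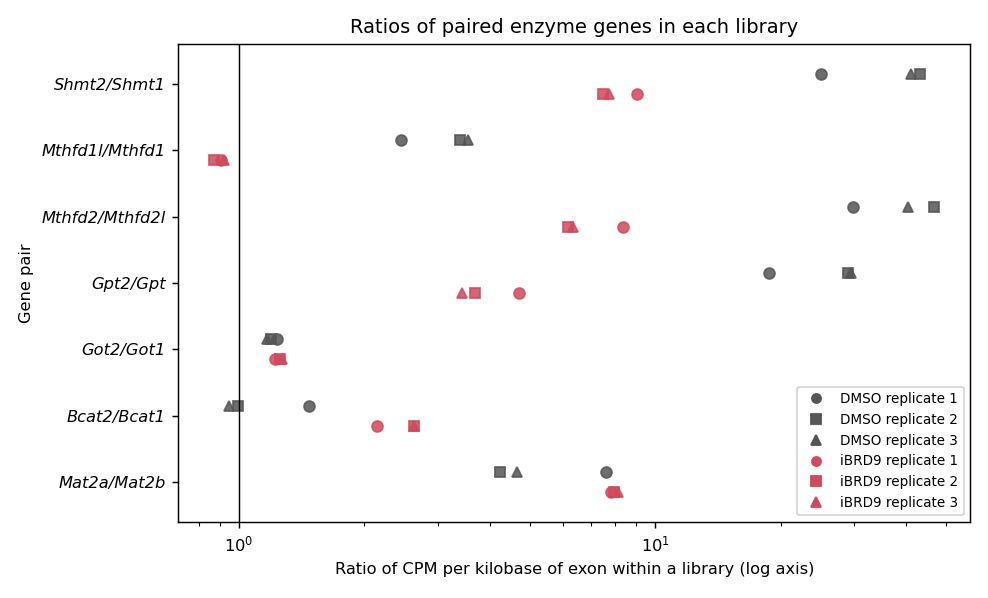
Ratio of CPM per kilobase of exon (horizontal, log axis) of 7 gene pairs (vertical) in each of the 3 DMSO and 3 iBRD9 libraries, 1 point per library, with a line at a ratio of 1. Got2/Got1 stays between 1.17 and 1.27 in all 6 libraries, while Gpt2/Gpt lies at 18.7 to 29.6 with DMSO and 3.43 to 4.70 with iBRD9.

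The glycine cleavage system, which breaks glycine down in mitochondria, was not uniform. Gldc, its decarboxylase, had 3, 5 and 6 counts with DMSO and 15, 9 and 9 with iBRD9 and was not tested. Dld, the dihydrolipoamide dehydrogenase it shares with the pyruvate and 2-oxoglutarate dehydrogenase complexes, fell from 213, 248 and 249 CPM to 142, 143 and 140 CPM (log2 fold change -0.74, edgeR adjusted p = 6.73e-05). Gcsh, the lipoate-bearing carrier protein, fell by less, from 49.5, 52.7 and 47.6 CPM to 38.6, 44.7 and 37.4 CPM (-0.31, edgeR adjusted p = 0.0115). The Gcsh call was lost with library size alone (-0.21, adjusted p = 0.0602), without iBRD9 replicate 1 (-0.28, adjusted p = 0.0526) and without iBRD9 replicate 3 (-0.27, adjusted p = 0.0543), with 2.40e-04 the lowest over all alternatives. Amt, the aminomethyltransferase, was weakly expressed and rose from 4.21, 1.85 and 1.90 CPM to 6.04, 4.52 and 4.48 CPM (0.93, edgeR adjusted p = 0.0287). DMSO replicate 1 was close to the iBRD9 libraries for Amt, and the call was lost without any 1 of the other 5 libraries (0.72 to 1.00, adjusted p 0.0543 to 0.120). Without DMSO replicate 1 its log2 fold change was 1.42 (edgeR adjusted p = 3.71e-07, the lowest over all alternatives).

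Sardh (ENSMUSG00000009614), the mitochondrial enzyme that demethylates sarcosine to glycine and passes the carbon to folate, fell 4.45-fold. Its values were 99.97, 114 and 112 CPM with DMSO and 24.2, 25.5 and 23.5 CPM with iBRD9 (log2 fold change -2.15, SE 0.075, edgeR adjusted p = 1.07e-06). The spread within each group was small, and DMSO replicate 1 lay near the other DMSO libraries, at -0.18 from their mean on the log2 scale.

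Proline synthesis from glutamate fell at both steps that were listed. Aldh18a1 (ENSMUSG00000025007), which makes the common intermediate of proline and ornithine, went from 302, 490 and 510 CPM to 96.7, 74.7 and 74.4 CPM. This was a 5.29-fold fall (log2 fold change -2.40, SE 0.201, edgeR adjusted p = 3.61e-05). Pycr1 (ENSMUSG00000025140), a mitochondrial pyrroline-5-carboxylate reductase that completes proline, was expressed at a low level, with 5.43, 9.35 and 10.6 CPM against 2.70, 2.88 and 2.74 CPM. DMSO replicate 1 lay between the other DMSO libraries and iBRD9, and the fall was 3.06-fold (-1.61, SE 0.242, edgeR adjusted p = 6.57e-04). Oat, which links ornithine to the same intermediate, fell slightly (252, 241 and 232 to 194, 210 and 207 CPM, -0.25, edgeR adjusted p = 0.00674). Its call was lost with library size alone (-0.14, adjusted p = 0.0812, with 9.07e-05 the lowest over all alternatives). Prodh, the proline dehydrogenase that starts proline breakdown, rose in the opposite direction, from 53.6, 45.4 and 43.2 CPM to 63.3, 64.2 and 62.4 CPM (0.42, SE 0.085, edgeR adjusted p = 0.00307). The Prodh call was kept under each alternative setting, with adjusted p up to 0.0171.

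Asns (ENSMUSG00000029752), the asparagine synthetase, was the most abundant enzyme transcript per kilobase with DMSO, at 302 ± 94.3 CPM per kilobase (SD, n = 3), and ranked 5 by that measure with iBRD9, at 63.1 ± 12.4. In CPM it stood at 528, 952 and 994 with DMSO and 212, 152 and 154 with iBRD9. The groups did not overlap, although DMSO replicate 1 was far below the other DMSO libraries, and the fall was 4.77-fold (log2 fold change -2.26, SE 0.240, edgeR adjusted p = 1.15e-04). Glud1, the glutamate dehydrogenase, fell from 148, 171 and 164 CPM to 111, 121 and 117 CPM (-0.47, edgeR adjusted p = 5.97e-04). Glul, the glutamine synthetase, rose from 278, 293 and 296 CPM to 338, 331 and 346 CPM (0.23, edgeR adjusted p = 0.00636). Its level per kilobase ranked 9 with DMSO (86.9 ± 2.88) and the highest with iBRD9 (102 ± 2.32). The next by that measure with iBRD9 were Oat (86.3 ± 3.67) and Mat2a (83.7 ± 1.85), which lie within their spreads of each other.

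Among the transaminases the largest fall was in Gpt2 (ENSMUSG00000031700), the mitochondrial alanine transaminase. It went from 300, 441 and 438 CPM to 74.4, 53.5 and 57.7 CPM, a 6.34-fold fall (log2 fold change -2.66, SE 0.177, edgeR adjusted p = 1.33e-05). Gpt2 was number 61 from the lowest log2 fold change among the 13602 tested genes, the furthest down of the 32 enzymes. Gpt, its cytosolic counterpart, stood at 8.33, 7.93 and 7.71 CPM with DMSO and 8.25, 7.56 and 8.78 CPM with iBRD9, with overlapping groups (0.04, edgeR adjusted p = 0.778).

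Bcat1 (ENSMUSG00000030268), the cytosolic branched-chain amino acid transaminase, went from 23.9, 40.7 and 39.8 CPM to 7.40, 6.24 and 5.83 CPM, a 5.34-fold fall (log2 fold change -2.42, SE 0.211, edgeR adjusted p = 4.34e-05). Bcat2 (ENSMUSG00000030826), the mitochondrial form, went from 14.8, 17.0 and 15.8 CPM to 6.66, 6.88 and 6.42 CPM, a 2.38-fold fall (-1.25, SE 0.097, edgeR adjusted p = 2.61e-05). Here the cytosolic form fell by more: the ratio of Bcat2 to Bcat1 per kilobase was 1.47, 0.995 and 0.947 with DMSO and 2.15, 2.64 and 2.63 with iBRD9. The aspartate transaminases Got1 (cytosolic; 212, 255 and 257 to 139, 140 and 133 CPM) and Got2 (mitochondrial; 497, 579 and 570 to 323, 334 and 320 CPM) fell by similar amounts, with log2 fold changes of -0.81 (SE 0.081, edgeR adjusted p = 8.31e-05) and -0.75 (SE 0.070, edgeR adjusted p = 6.03e-05). Their ratio was 1.17 to 1.24 with DMSO and 1.22 to 1.27 with iBRD9, with overlapping groups.

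Of the 5 tested enzymes of the methionine cycle 3 did not pass the test, 1 fell and 1 rose, beside 30.9% lower and 29.8% higher among all tested genes. Methionine synthase, Mtr, stood at 55.5, 56.2 and 57.0 CPM with DMSO and 55.5, 58.1 and 58.1 CPM with iBRD9 (log2 fold change 0.03, edgeR adjusted p = 0.709). Its reductase Mtrr (-0.06, edgeR adjusted p = 0.611) and Mat2b, the regulatory subunit of methionine adenosyltransferase (0.03, edgeR adjusted p = 0.639), also had overlapping groups. Ahcy, which hydrolyses S-adenosylhomocysteine, fell from 122, 123 and 115 CPM to 82.5, 93.1 and 86.0 CPM (-0.46, SE 0.065, edgeR adjusted p = 4.64e-04). Its transcript closely matched 3 other annotated transcripts, which held at most 20 counts. Mat2a, the catalytic subunit that makes S-adenosylmethionine, stood at 355, 201 and 202 CPM with DMSO and 368, 374 and 384 CPM with iBRD9. DMSO replicate 1 was just below the iBRD9 libraries while the other DMSO libraries were far below them. Mat2a passed as higher with all libraries (0.57, SE 0.199, edgeR adjusted p = 0.0349) and without DMSO replicate 1 (0.89, adjusted p = 9.44e-15, the lowest over all alternatives). With any 1 of the other 5 libraries left out it missed the threshold (0.42 to 0.58, adjusted p 0.0826 to 0.114), without a filter (adjusted p = 0.207, the highest) or with DESeq2 (adjusted p = 0.0903).

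The transsulfuration and arginine groups were near the detection limit apart from Asl. Cbs, which joins homocysteine and serine, had 1, 5 and 8 counts with DMSO and 0, 1 and 0 with iBRD9. Cth, which releases cysteine, had 0, 6 and 4 counts and 0, 0 and 1. Ass1, the argininosuccinate synthetase, had at most 2 counts in any library. None of these (0 of 3) was tested. Asl, the argininosuccinate lyase of the following step, stood at 39.2, 52.0 and 51.5 CPM with DMSO and 43.7, 40.5 and 39.9 CPM with iBRD9, with DMSO replicate 1 the lowest of all libraries (log2 fold change -0.20, edgeR adjusted p = 0.142). Without that library Asl passed as lower (-0.33, edgeR adjusted p = 1.30e-05, with 1.30e-05 to 0.443 over all alternatives).

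Grouped by the compartment of the enzyme, a grouping made after the values were seen and so given without a test, 14 of 17 tested mitochondrial enzymes fell, 3 rose and none (0) failed to pass. Of 15 tested cytosolic enzymes 6 fell, 2 rose and 7 did not pass. Of all tested genes 30.9% fell and 29.8% rose, and the cytosolic share of falls of any size was not far from this. Falls of at least 1 on the log2 scale were found in 9 of the 17 mitochondrial and 4 of the 15 cytosolic enzymes. Both shares were above the 5.46% of all tested genes, so large falls were not limited to mitochondrial enzymes. The cytosolic ones were Psat1, Psph, Asns and Bcat1. The median log2 fold changes were -1.25 and -0.06.

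Other genes of the same pathways, 77 in all and listed by function with the results of the enzymes known, gave smaller values. Of the 60 tested, 20 fell (33.3%), 14 rose (23.3%) and 26 did not pass, with a median log2 fold change of -0.18, beside the 30.9% and 29.8% of all tested genes. With library size alone 16 fell and 18 rose, beside 3385 lower and 4999 higher of all 13602 tested genes. Without iBRD9 replicate 2 the count of risen genes was 9 of 62 tested, beside 3310 of all 13860 tested genes. Adi1, an enzyme of methionine salvage, fell by 1.09 on the log2 scale (135, 154 and 153 to 69.8, 73.2 and 65.4 CPM, SE 0.073, edgeR adjusted p = 1.41e-05) and was the single one of the 60 that fell by at least 1. Gnmt, the glycine N-methyltransferase, was the single one that rose by at least 1 (1.71, edgeR adjusted p = 0.00240). Gnmt was near the floor, at 5, 6 and 5 counts against 19, 18 and 21, and is named after its values were seen.

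In the folate group of that list 6 of 13 tested genes fell and 4 rose, and in glutamine and glutamate metabolism 4 of 7 rose and none (0) fell, beside 30.9% lower and 29.8% higher among all tested genes. The share of risen folate genes was close to that of all genes. The following 3 genes are named after their values were seen. The reduced folate carrier gene Slc19a1 (-0.90, edgeR adjusted p = 1.89e-05) and the purine enzyme gene Atic (-0.83, edgeR adjusted p = 1.40e-05) fell. The purine enzyme gene Gart rose (0.38, edgeR adjusted p = 0.00732).

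**Figure D4:**
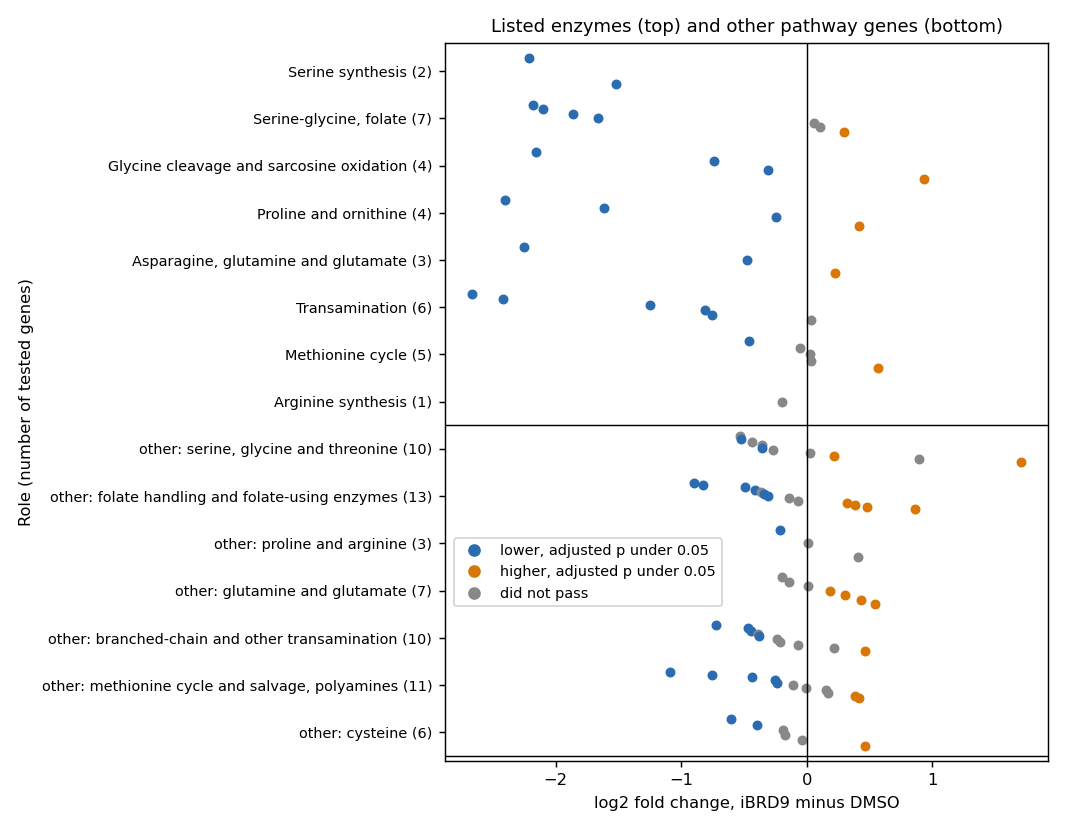
Log2 fold change of iBRD9 against DMSO (horizontal) for the 32 tested enzymes (top) and 60 other tested genes of the same pathways (bottom), 1 point per gene, by role. Of the enzymes 13 lie at -1 or below, and of the other genes 1, while 5.46% of all tested genes fell by at least 1.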

How the data were processed

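RNA-seq read counts of 6 Melb-a libraries were used, 3 with DMSO and 3 with iBRD9, grouped by the titles in the labels. The authors deposited raw counts for each gene ID, and the submitters' processing notes list CASAVA 1.8.2, Bowtie2 2.4.5 and GRCm39. How reads were counted, on which annotation and with what strand setting, is not given here, and the library kit is not described as keeping strand. Symbols came from GENCODE M21, an annotation of GRCm38, which matched 34490 of 35275 IDs; all 38 enzymes matched. Exon lengths also came from it.

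Genes were kept by edgeR's filterByExpr (minimum count 10) and scaled by TMM. The quasi-likelihood F-test with robust dispersions (edgeR 4.0.16, R 4.3.3) had treatment as the sole term, over 13602 genes, with Benjamini-Hochberg adjustment; tests are two-sided. The standard error is the log2 fold change divided by the square root of F. The procedure was first run on simulated counts in which few genes changed and no library stood apart. These data differ on both points, so that run does not show how well the calls hold here. The enzymes and the list of other pathway genes were chosen with earlier results of these data known. Enzymes called with a log2 fold change of at least 1 in size and a mean expression of at least 0 on the log2 CPM scale are given with every library; the others by fold change, adjusted p or counts, and other pathway genes are named by the same rule unless said. Close copies of transcripts were found with blastn 2.17.0. Alternatives were DESeq2 size factors, library size alone, DESeq2 1.42.0 (Wald test), no filter, 1 CPM in 3 libraries, the replicate number as a block, and leaving out each library. Libraries within a group differed beyond sampling noise (chi-square over degrees of freedom 1.93 or more). This value was 29.2 and 37.5 for DMSO replicate 1 against DMSO replicates 2 and 3, and 3.06 between DMSO replicates 2 and 3. Figures were drawn with matplotlib 3.10.9. Most of the other pathway genes enter only the counts, and some are not reported here.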

Additional observations from a re-analysis of the deposited data

How the results depend on the processing

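The count of fallen enzymes ran from 18 (library size alone) to 21 over all alternatives, and each of the 13 large falls was called lower in every one, with log2 fold changes of -2.83 to -1.14. Leaving out 1 library at a time gave 2 to 6 risen enzymes, 17 to 28 fallen and 9 to 20 risen genes among the other genes of the pathways. Over all tested genes it gave 3558 to 5152 fallen and 3235 to 5159 risen. Library size alone moved the median log2 fold change of all genes by 0.11 and gave 3385 lower and 4999 higher calls of all genes, against 4205 and 4057. That setting turned Mtrr to 0.049. Leaving out 1 library gave -0.0023 (without DMSO replicate 2) to 0.090 for Shmt1, -0.017 (without iBRD9 replicate 3) to 0.089 for Gpt and -0.0098 (without DMSO replicate 3) to 0.051 for Mat2b, all near 0 and uncalled. With the replicate number as a block, 20 enzymes fell and 5 rose, beside 4017 lower and 3920 higher of all 13602 tested genes. No enzyme changed its call in that setting. The deviations from the group mean correlated at 0.118, 0.060 and 0.025 for same-numbered libraries, and at -0.0996 to 0.0469 for differently numbered ones. Correlations this weak do not settle whether the numbers pair the samples. Without a filter or with DESeq2, Cbs was also called lower, at 0 to 8 counts. For calls lost in single settings the cause was not tested. The 6 enzymes left out by the filter had at most 15 counts per library, which limits the precision of any comparison of them.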
